A study of Mus musculus with 9 samples.

Results

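Genes that mark hepatic stellate cells and the myofibroblasts derived from them were followed in healthy mouse liver, in untreated hepatocellular carcinoma (HCC) and in HCC treated with the microRNA miR-22. They are 10 genes chosen by name from 55401 genes in the count table. They were grouped here as markers of the quiescent cell (Lrat and Reln), of the cell in either state (Des, Pdgfrb, Pdgfra and Dcn) and of the activated cell (Acta2, Tagln, Vim and Lum). In untreated HCC the 4 markers of the activated cell and Pdgfrb rose against healthy liver, whereas Lrat and Dcn fell. With miR-22, Vim was lower than in untreated HCC, and Dcn and Lrat were higher. Vim passed this test in all 17 alternative analyses run, Dcn in 15 and Lrat in 12. Reln, Pdgfra and Des passed the test in no comparison with TMM scaling.

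Stellate cells lie between the hepatocytes and the endothelium of the sinusoids and, when quiescent, store vitamin A as retinyl esters in lipid droplets. In injury and in many liver tumors they become activated: they lose the droplets, proliferate in response to platelet-derived growth factor (PDGF), acquire contractile filaments and secrete collagen. Portal fibroblasts, vascular smooth muscle cells and mesothelial cells share several of the same markers, and vimentin is made by endothelial and blood cells too.

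The livers came from female mice bought at 6 weeks of age. The sample descriptions give their strain as FVB/N in the growth protocol and as C57BL/6 in another field, and the study's methods name FVB/N for all groups. In both HCC groups, plasmids for myristoylated AKT (myr-AKT) and NRAS V12 (Nras-v12), with the Sleeping Beauty transposase that inserts them into the genome, entered hepatocytes by hydrodynamic injection, a rapid tail vein injection in 2 mL. The growth protocol also lists a plasmid for N90-β-catenin. The study describes β-catenin/AKT tumors as a separate model and calls the sequenced tumors RAS/AKT-induced. At week 1 after the oncogenes, the untreated HCC group (n = 3) received a blank adeno-associated virus of serotype 8 (AAV8) and the miR-22-treated group (n = 3) AAV8 with miR-22 under a CMV promoter, which is not restricted to one cell type. Livers were taken at week 5, 4 weeks after the virus. Healthy livers (n = 3) are labelled as having had no treatment, so that oncogenes, injection and virus cannot be told apart in the comparisons with them. Healthy liver 1, and to a lesser degree healthy liver 3, held RNA of skeletal muscle genes, whose values stand beside Des. Whole liver was sequenced, and fewer cells of a type cannot be told apart from less RNA per cell.

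Mature miR-22-3p was read from RefSeq, where it lies at chr11:75463772-75463793 on the plus strand (GRCm38.p6). It is shown with its seed, bases 2 to 8, in capitals.
mmu-miR-22-3p: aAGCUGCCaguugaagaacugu
The reverse complement of the seed, GGCAGCT, was searched on the transcribed strand in the 3′ UTR of each marker's canonical transcript. It was present in 2 of the 10, Lrat and Tagln, and is shown in capitals.
Lrat: tctgagtcctctcaGGCAGCTct
Tagln: gatgactgcacatgGGCAGCTcc
The match began at base 213 of 4394 in the Lrat 3′ UTR and at base 117 of 760 in that of Tagln. Of 13559 tested genes with an annotated 3′ UTR, 2287 (16.9%) held the same 7 letters, over a median 3′ UTR of 1339 bases. The match describes the letters and was not tested as a binding site. Beside it, Lrat was higher with miR-22 than without, and the Tagln difference did not pass the test (values below).

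Levels are in CPM, a gene's count relative to the total of its library after TMM scaling, which sets the libraries on a common scale from the bulk of the genes. A gene was called where edgeR's quasi-likelihood test gave an adjusted p under 0.05 over all 15717 genes tested and the fold was above 1.5. All 10 markers passed the filter on low counts and were tested. Between healthy liver and untreated HCC, 7 of the 10 were called, 5 higher and 2 lower. Over all genes tested, 40.8% were called, 22.7% higher and 18.1% lower. Between the HCC groups 3 markers were called, 2 higher and 1 lower with miR-22, against 13.8% of all genes, 8.32% higher and 5.47% lower. Between miR-22-treated HCC and healthy liver 5 were called, all higher, against 24% of all genes, 16.9% higher and 7.05% lower. The median log2 fold change of the 10 was 0.83, −0.21 and 0.61 in these comparisons, beside 0.01, 0.00 and 0.02 over all genes. The groups did not overlap for 7, 4 and 5 of the 10. Over all genes this held for 65.3%, 39.3% and 48.8%, so that the markers' shares were close to the background and say nothing particular about them. Under total-count scaling the median over all genes moved to 0.43, −0.23 and 0.21, and the calls became 7 higher and 1 lower, 1 higher and 4 lower, and 5 higher.

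**Figure D1:**
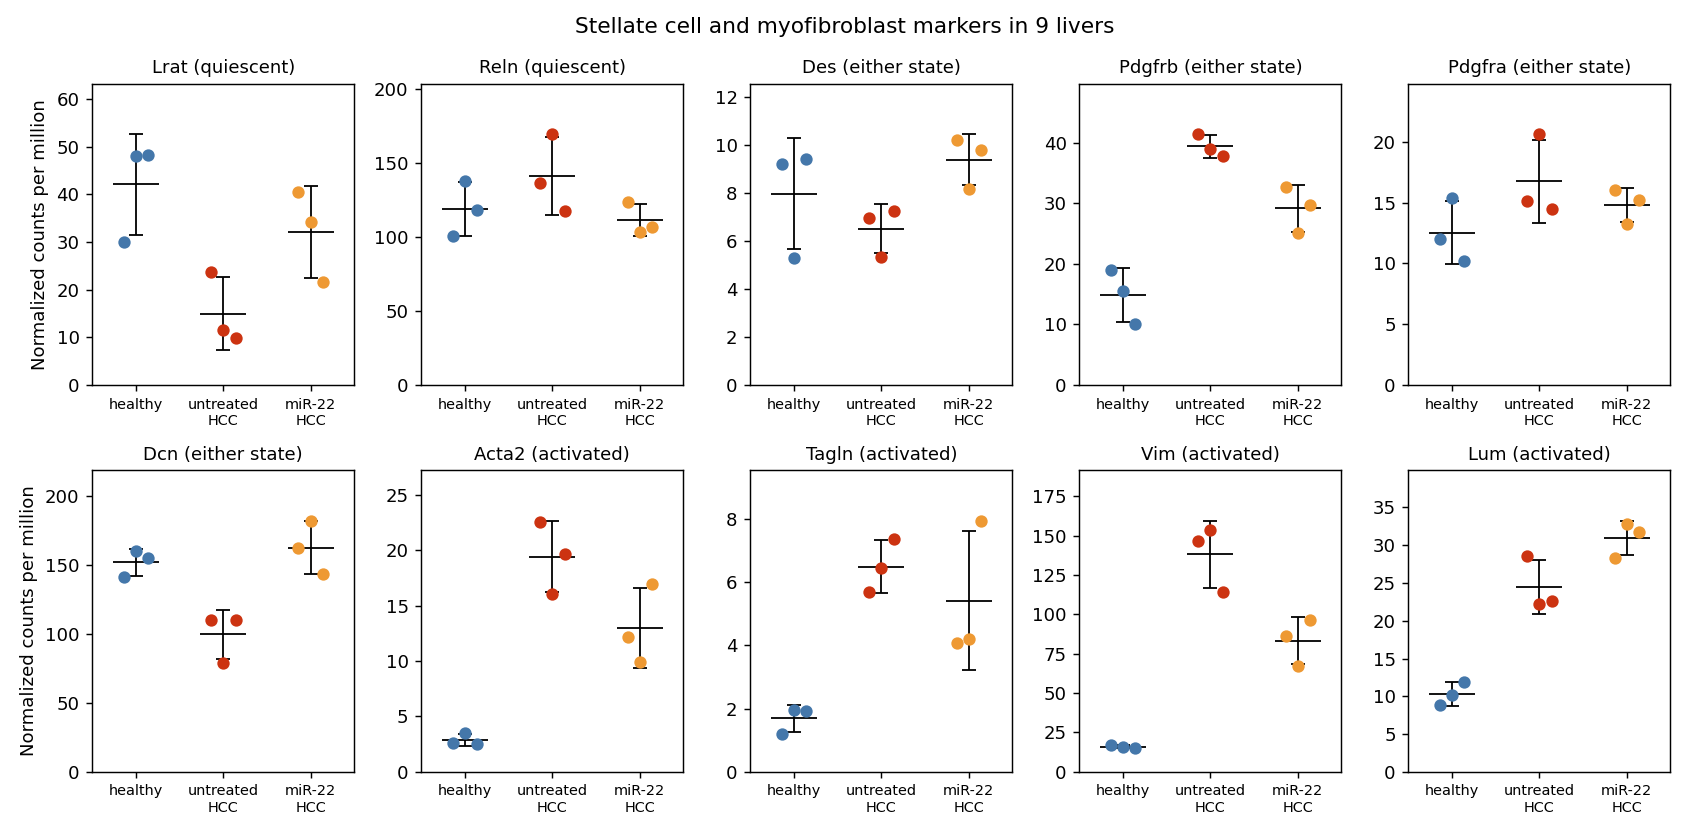
Level of each marker (CPM, vertical axes from 0) in the 9 livers. Points are livers in the order of their replicate numbers, long bars are group means and error bars are 1 SD (n = 3 per group). Acta2, Tagln, Vim and Lum were higher in all 6 HCC livers than in all 3 healthy ones, whereas Lrat was lower in the 3 untreated HCC livers than in the 3 healthy ones.

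Lrat (ENSMUSG00000028003, GRCm39 chr3:82799886-82811288, minus strand) encodes lecithin retinol acyltransferase, the enzyme that esterifies retinol for storage. It stood at 29.9, 48.1 and 48.4 CPM in healthy livers 1, 2 and 3. In untreated HCC livers 2, 3 and 4 it stood at 23.7, 11.5 and 9.82 CPM, and in miR-22-treated livers 2, 3 and 4 at 40.5, 34.2 and 21.6 CPM. All 3 untreated livers lay below all healthy ones, whereas the lowest treated liver lay below the highest untreated one. Lrat fell in untreated HCC by 1.5 on the log2 scale (SE 0.315, edgeR adjusted p = 0.00134). With miR-22 it was 2.15-fold higher than in untreated HCC (log2 fold change 1.10, SE 0.315, edgeR adjusted p = 0.0239). This call was lost without untreated replicate 3 (0.94, adjusted p = 0.106), without untreated replicate 4 (0.87, adjusted p = 0.0751), without treated replicate 2 (0.90, adjusted p = 0.0902), without treated replicate 3 (1.05, adjusted p = 0.0736) and with DESeq2 (adjusted p = 0.0564). Against healthy liver, Lrat in treated HCC differed by −0.40 (95% interval −1.06 to 0.27, edgeR adjusted p = 0.339).

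Reln (ENSMUSG00000042453, chr5:22089452-22549700, minus strand) encodes reelin, a large secreted glycoprotein that in liver is made mainly by stellate cells. Its level was 101, 138 and 118 CPM in healthy livers, 136, 170 and 118 CPM in untreated HCC and 124, 103 and 107 CPM with miR-22. The 3 groups overlapped. The log2 difference was 0.25 in untreated HCC against healthy liver (95% interval −0.07 to 0.56, edgeR adjusted p = 0.163) and −0.34 with miR-22 against untreated HCC (−0.65 to −0.03, edgeR adjusted p = 0.106). Under total-count scaling both were called, at 0.68 and −0.59. Reln did not fall in untreated HCC as Lrat did, and their grouping as quiescent markers was not tested. The 2 genes did not keep the same proportion. The ratio of Reln to Lrat counts was 3.38, 2.86 and 2.45 in healthy livers, 5.75, 14.8 and 12 in untreated HCC, and 3.06, 3.02 and 4.96 with miR-22. Every untreated HCC liver had a higher ratio than the other 6 livers.

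Of the receptors and adaptors of reelin, Dab1, the intracellular adaptor, rose in untreated HCC (log2 fold change 4.20, edgeR adjusted p = 1.6e-07), as did the receptor Lrp8 (3.38, 2.5e-05). Vldlr, the other receptor, had a log2 difference of 0.06 (edgeR adjusted p = 0.759). With miR-22, 1 of the 6 reelin pathway genes was called, beside 13.8% of all genes. This was Dab1, lower than in untreated HCC (−0.66, edgeR adjusted p = 0.0422). That call ended without healthy replicate 2 or 3, untreated replicate 2 or 3, or treated replicate 2 or 3, and with the replicate number as a block. Under total-count scaling 3 of the 6 were called, all lower with miR-22.

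Pdgfrb (ENSMUSG00000024620, chr18:61178212-61218133, plus strand) encodes the PDGF receptor β, through which PDGF drives stellate cell growth. It stood at 19.0, 15.4 and 10.1 CPM in healthy livers, at 41.4, 38.9 and 37.8 CPM in untreated HCC and at 32.7, 25.1 and 29.7 CPM with miR-22. The 3 groups did not overlap, with the treated livers between the others. Pdgfrb rose in untreated HCC (log2 fold change 1.41, SE 0.181, edgeR adjusted p = 2.7e-05). It was higher than in healthy liver with miR-22 too (0.98, edgeR adjusted p = 0.00124), and its difference between the HCC groups did not pass (−0.43, 95% interval −0.81 to −0.05, adjusted p = 0.0919) except under total-count scaling (−0.67).

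Pdgfra (ENSMUSG00000029231, chr5:75311994-75358876, plus strand), the PDGF receptor α of fibroblasts, stood at 12, 15.4 and 10.2 CPM in healthy livers, 15.1, 20.6 and 14.5 CPM in untreated HCC and 16.0, 13.3 and 15.2 CPM with miR-22. The groups overlapped, and no comparison was called. The largest of the 3 differences was 0.42 in untreated HCC against healthy liver (95% interval 0.04 to 0.80, edgeR adjusted p = 0.0570), which total-count scaling called, at 0.85. The ratio of Pdgfrb to Pdgfra was 1.58, 1.00 and 0.98 in healthy livers, 2.75, 1.88 and 2.62 in untreated HCC, and 2.04, 1.89 and 1.96 with miR-22, so that both HCC groups lay above healthy liver and overlapped each other.

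Among 7 genes for PDGF ligands, receptors and the receptor-like Pdgfrl, 6 rose in untreated HCC, beside 22.7% of all genes. Pdgfra was the exception, and Pdgfrl was low, with 7, 0 and 7 counts in healthy livers. The rises of the ligand genes with the smallest p were 3.08 (Pdgfb, from 1.21 to 1.83 CPM in healthy to 11.2 to 15.4 CPM in untreated livers), 2.88 (Pdgfc) and 1.86 (Pdgfa) on the log2 scale, with edgeR adjusted p of 4.3e-07, 3.1e-07 and 1.5e-06. With miR-22 the same 3 ligands were lower than in untreated HCC, by log2 differences of −0.95, −0.77 and −0.63 (edgeR adjusted p = 0.00526, 0.0103 and 0.0122), and none of Pdgfrb, Pdgfra and Pdgfrl was called. That count of 3 was 1 without untreated replicate 2 and 1 without treated replicate 3.

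Des (ENSMUSG00000026208, chr1:75320511-75345223, plus strand) encodes desmin, the intermediate filament of muscle that rodent stellate cells also make. It stood at 9.18, 5.29 and 9.40 CPM in healthy livers, 6.94, 5.33 and 7.25 CPM in untreated HCC and 10.2, 8.16 and 9.80 CPM with miR-22. The log2 difference was −0.29 in untreated HCC against healthy liver (95% interval −0.76 to 0.18, edgeR adjusted p = 0.273). The treated livers all lay above the untreated ones, by 0.53 (0.06 to 0.99, edgeR adjusted p = 0.0950). Genes of skeletal muscle were lowest in the same healthy liver as Des. The summed level of 10 of them, a list written after the level of the muscle actin gene Acta1 had been seen, was 126, 1.45 and 22.6 CPM in healthy livers 1, 2 and 3 and 1.03 to 2.01 CPM in the 6 HCC livers, and Acta1 had 384, 0 and 101 counts in the healthy livers. With healthy liver 2 as the only healthy one, the Des difference in untreated HCC was 0.28 in place of −0.29, and in treated HCC 0.81 in place of 0.24. As that liver had the lowest Des of the healthy group, this choice had to raise both differences. The fit assumes that the lone liver varies like the other groups, and the part of muscle RNA in the Des values was not tested.

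Dcn (ENSMUSG00000019929, chr10:97315275-97358155, plus strand) encodes decorin, a small leucine-rich proteoglycan that binds collagen fibrils. It stood at 141, 160 and 155 CPM in healthy livers, at 110, 79.3 and 110 CPM in untreated HCC and at 162, 182 and 144 CPM with miR-22. All untreated livers lay below all others, whereas the healthy and treated livers overlapped. Dcn fell by 0.61 in untreated HCC (SE 0.133, edgeR adjusted p = 0.00175) and was 1.63-fold higher with miR-22 (log2 fold change 0.71, SE 0.133, edgeR adjusted p = 0.00284). Between treated HCC and healthy liver the difference was 0.10 (95% interval −0.19 to 0.38, edgeR adjusted p = 0.600). The fold was close to the limit of 1.5: without healthy replicate 2 the fall in untreated HCC was −0.58, and without untreated replicate 3 it was −0.46 and the rise with miR-22 was 0.56, all under that limit. Under total-count scaling the fall was −0.19 and not called.

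Lum (ENSMUSG00000036446, chr10:97400990-97408577, plus strand) lies next to Dcn on the chromosome and encodes lumican, a second proteoglycan of collagen fibrils. Its levels went the other way in untreated HCC. It stood at 8.80, 10.2 and 11.9 CPM in healthy livers, 28.6, 22.2 and 22.6 CPM in untreated HCC and 28.4, 32.8 and 31.7 CPM with miR-22. All 6 HCC livers lay above the healthy ones, and the HCC groups overlapped. Lum rose in untreated HCC (log2 fold change 1.25, SE 0.139, edgeR adjusted p = 8.8e-06) and in treated HCC against healthy liver (1.59, SE 0.140, adjusted p = 4.1e-06), while the difference between the HCC groups was 0.34 (95% interval 0.05 to 0.62, adjusted p = 0.0815). The ratio of Lum to Dcn counts was 0.0624, 0.0639 and 0.0767 in healthy livers, 0.260, 0.280 and 0.206 in untreated HCC, and 0.175, 0.180 and 0.221 with miR-22.

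The family of small leucine-rich proteoglycans showed both directions. Of 12 tested among 15, 6 rose in untreated HCC and 4 fell, beside 22.7% and 18.1% of all genes. Prelp (log2 fold change 1.57, edgeR adjusted p = 1.5e-07) and Bgn, the biglycan gene (1.05, 2.3e-06), rose together with Lum, and Ogn (−1.11, 0.00183), Chad (−1.0, 0.00219) and Podn (−1.45, 0.00230) fell together with Dcn. Against untreated HCC, 3 were higher with miR-22, namely Dcn, Ogn (1.38, edgeR adjusted p = 0.00183) and Chad (0.86, 0.0160), and none was lower. Each of these 3 had also fallen in untreated HCC, but both comparisons use the same untreated livers and are not independent. Ogn was low, at 1.03 to 1.27 CPM in the untreated livers. Without untreated replicate 3 the count with miR-22 was 1.

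Acta2 (ENSMUSG00000035783, chr19:34217737-34232990, minus strand) encodes α smooth muscle actin, the usual marker of myofibroblasts. It stood at 2.64, 3.47 and 2.47 CPM in healthy livers, at 22.5, 16.1 and 19.7 CPM in untreated HCC and at 12.1, 9.88 and 16.9 CPM with miR-22. All HCC livers lay above all healthy ones, and treated replicate 4 lay above untreated replicate 3. Acta2 rose 6.80-fold in untreated HCC (log2 fold change 2.77, SE 0.225, edgeR adjusted p = 7.0e-07) and 4.57-fold in treated HCC against healthy liver (2.19, SE 0.228, adjusted p = 1.5e-05). Between the HCC groups the level with miR-22 was 1.49-fold lower (−0.57, SE 0.194, edgeR adjusted p = 0.0487), which passed the adjusted p but not the fold. It passed both without treated replicate 4 (−0.82, adjusted p = 0.00680), without untreated replicate 3 (−0.70, adjusted p = 0.0479) and with DESeq2 (−0.61, adjusted p = 0.0288), DESeq2 size factors (−0.60, adjusted p = 0.0417), total-count scaling (−0.80, adjusted p = 0.0109) and the replicate number as a block (−0.60, adjusted p = 0.0370). Over the 17 alternatives the difference ran from −0.82 to −0.42, and its adjusted p was not under 0.05 in 9 of them, including the omission of any 1 healthy liver, of untreated replicate 2 (−0.46, adjusted p = 0.190) or 4 (−0.57, adjusted p = 0.0973), or of treated replicate 2 (−0.53, adjusted p = 0.127) or 3 (−0.42, adjusted p = 0.191) from the edgeR fit. Actin genes are near-identical over long stretches and 301 exonic bases overlap Stambpl1 on the other strand, so that the split of reads among them is uncertain.

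Tagln (ENSMUSG00000032085, chr9:45840909-45847404, minus strand) encodes transgelin or SM22, an actin-binding protein of smooth muscle cells and myofibroblasts. It stood at 1.19, 1.95 and 1.92 CPM in healthy livers, 5.67, 6.45 and 7.36 CPM in untreated HCC and 4.06, 4.21 and 7.94 CPM with miR-22. All HCC livers lay above the healthy ones, and treated replicate 4 had the highest level of the 9. Tagln rose in untreated HCC (log2 fold change 1.94, SE 0.300, edgeR adjusted p = 0.000131) and in treated HCC against healthy liver (1.68, SE 0.305, adjusted p = 0.00104). The latter was not called with healthy liver 2 as the only healthy one (1.46, edgeR adjusted p = 0.0522). Between the HCC groups the difference was −0.26 (95% interval −0.84 to 0.33, edgeR adjusted p = 0.540). The library preparation kept no strand, and 1241 exonic bases of Tagln are shared with Gm48529, a long noncoding RNA on the other strand. A further 123 are shared with Pcsk7, a more abundant gene on the other strand, with 6593 counts over the 9 livers beside 851 for Tagln, and that overlap was not resolved. Gm48529 had 37, 37 and 51 counts in healthy livers beside 19, 31 and 35 for Tagln, and 30 to 52 counts in the HCC livers beside 66 to 197. The sum of both genes was 4.17 ± 0.609 CPM in healthy liver, 8.58 ± 0.793 CPM in untreated HCC and 7.43 ± 2.54 CPM with miR-22 (SD, n = 3), a 2.06-fold and a 1.78-fold rise in place of 3.82 and 3.20 for Tagln alone.

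Vim (ENSMUSG00000026728, chr2:13578738-13587639, plus strand) encodes vimentin, the intermediate filament of mesenchymal cells. It stood at 17.0, 15.8 and 15.2 CPM in healthy livers, at 147, 154 and 114 CPM in untreated HCC and at 86.1, 67.5 and 96.6 CPM with miR-22. The 3 groups did not overlap, with the treated livers between the others. Vim rose 8.66-fold in untreated HCC (log2 fold change 3.11, SE 0.152, edgeR adjusted p = 1.8e-08) and was 1.66-fold lower with miR-22 than without (−0.73, SE 0.136, edgeR adjusted p = 0.00278). Both calls held in all 17 alternatives run. Against healthy liver, treated HCC was 5.23-fold higher (edgeR adjusted p = 2.6e-07). Nes, the gene of nestin, an intermediate filament that assembles with vimentin, had the same calls: 1.91 in untreated HCC (edgeR adjusted p = 8.3e-07) and −1.08 with miR-22 (adjusted p = 0.000597).

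**Figure D2:**
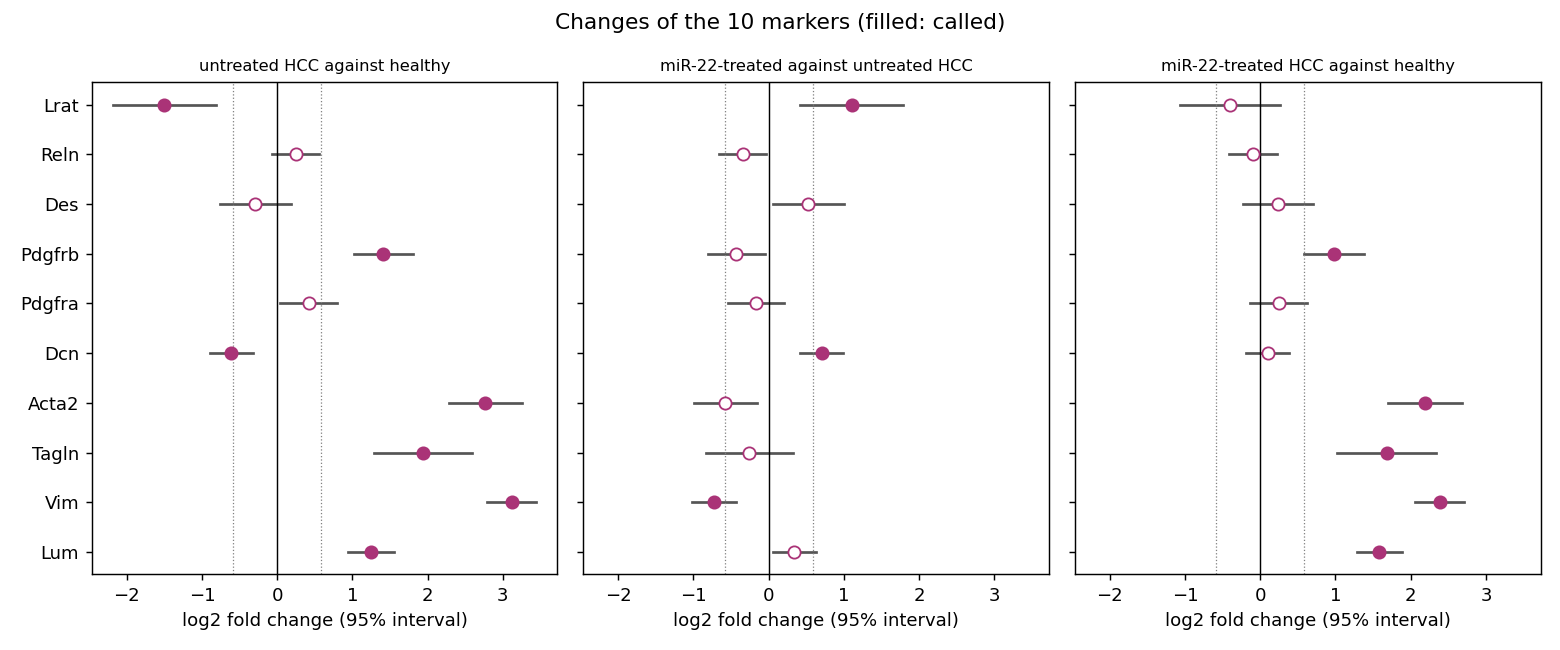
Log2 fold change of each marker (points) with its 95% interval (bars) in the 3 comparisons, from edgeR with n = 3 livers per group. Filled points were called, and dotted lines mark a fold of 1.5. Vim and Acta2 had the largest rises in untreated HCC (3.11 and 2.77), whereas Lrat (1.10) had the largest rise with miR-22 and the widest interval of the 3 markers called there.

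Ratios within a library do not depend on the scaling between libraries. The ratio of Acta2 to Lrat counts was 0.0882, 0.0720 and 0.0511 in healthy livers, 0.951, 1.40 and 2.00 in untreated HCC and 0.299, 0.289 and 0.784 with miR-22. The 3 groups did not overlap on this ratio, although Lrat and Acta2 each overlapped between the HCC groups. The ratio of Tagln to Lrat did overlap between the HCC groups, at 0.239 to 0.749 in untreated and 0.100 to 0.368 in treated livers. The ratio of Acta2 to Des was 0.288, 0.655 and 0.263 in healthy livers, 3.25, 3.02 and 2.72 in untreated HCC and 1.19, 1.21 and 1.73 with miR-22, with no overlap. The ratio of Pdgfrb to Des had no overlap between the HCC groups either, at 5.22 to 7.29 in untreated HCC and 3.03 to 3.21 with miR-22. By contrast, the ratio of Lrat to Des overlapped among all groups, at 3.26 to 9.10 for healthy, 1.36 to 3.42 for untreated and 2.20 to 4.20 for treated livers. Skeletal muscle genes differed among the same healthy livers, as given beside Des.

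**Figure D3:**
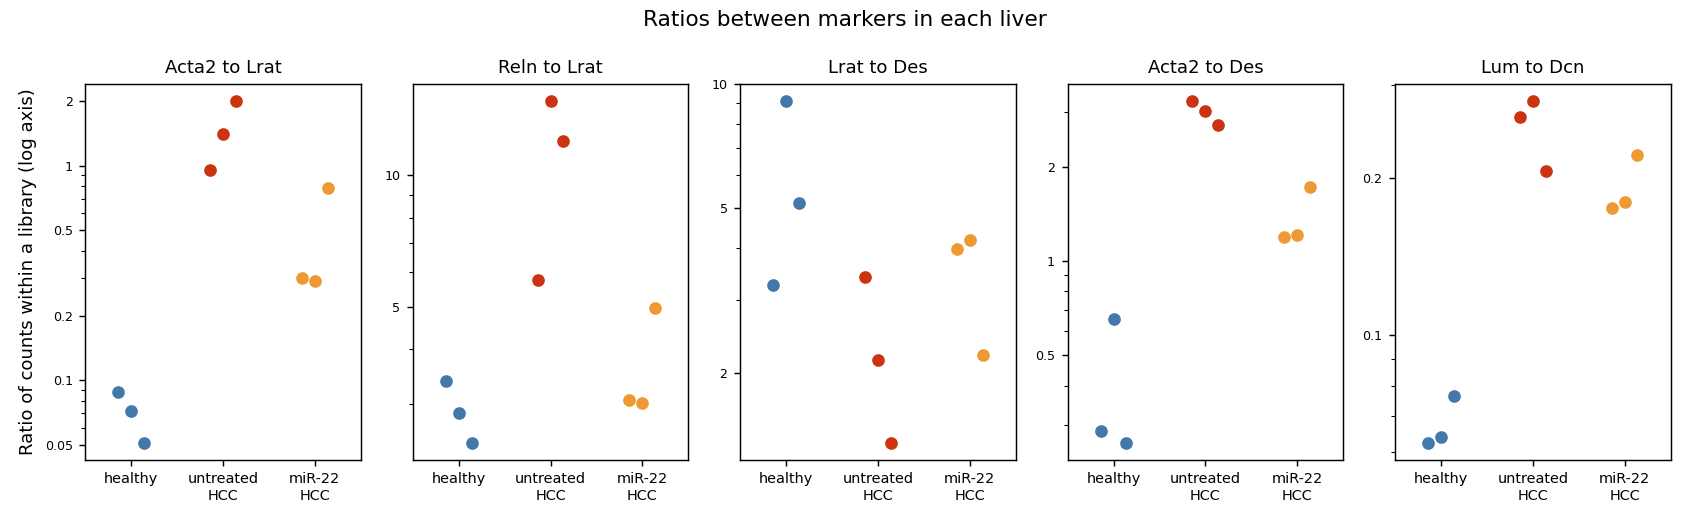
Ratio of the counts of 2 markers in each of the 9 livers (points, in the order of the replicate numbers, log axes that do not start at 0). Acta2 to Lrat and Acta2 to Des separated the 3 groups, with miR-22-treated livers (0.289 to 0.784 and 1.19 to 1.73) between healthy and untreated ones, whereas Lrat to Des overlapped.

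Per kilobase of the canonical transcript, the order of the markers in healthy liver was Dcn (24.9 CPM per kb), Reln (10.2), Lrat (7.86), Vim (7.28), Lum (4.18), Pdgfrb (2.74), Des (2.54), Pdgfra (1.90), Acta2 (1.03) and Tagln (1.02). In untreated HCC Vim came first (63.0 CPM per kb), ahead of Dcn (16.3), Reln (12.1), Lum (9.96), Pdgfrb (7.28), Acta2 (6.97) and Tagln (3.93), with Lrat (2.80), Pdgfra (2.54) and Des (2.08) last. With miR-22 the order began with Vim (38.0), Dcn (26.6), Lum (12.6) and Reln (9.53), and Lrat (5.99) stood above Pdgfrb (5.39) and Acta2 (4.66). Lrat thus had rank 3 in healthy liver, 8 in untreated HCC and 5 with miR-22. The Dcn transcript of this annotation is long, and a shorter one would raise its level on this scale. Of the 9 pairs of neighbours in this order, 5 overlapped among the healthy livers (Reln and Lrat, Lrat and Vim, Pdgfrb and Des, Des and Pdgfra, Acta2 and Tagln). In untreated HCC 6 overlapped, all but Vim and Dcn, Lum and Pdgfrb, and Acta2 and Tagln. With miR-22 the 4 pairs from Lrat through Pdgfrb, Acta2 and Tagln to Des overlapped.

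Lists of other genes of the same cells, chosen with earlier results of these data known, gave the setting of the 10. The counts for the lists stand beside 40.8% of all genes called in untreated HCC against healthy liver, 22.7% higher and 18.1% lower. With miR-22 against untreated HCC 13.8% of all genes were called, 8.32% higher and 5.47% lower. Of 24 tested among 25 other genes of activated stellate cells, 24 rose in untreated HCC (median log2 fold change 2.85). They included the fibrillar collagen genes Col1a1, from 4.89 to 6.49 CPM in healthy livers to 165 to 214 CPM (5.06, edgeR adjusted p = 4.8e-09), Col5a2 (3.75, 3.9e-09) and Col3a1 (3.21, 4.8e-09). With miR-22, 13 of the 24 were lower than in untreated HCC and none was higher (median −0.73), among them Mmp14, a membrane-bound matrix protease (−0.85, edgeR adjusted p = 0.000562), Col1a1 (−0.94, 0.00159) and the fibrillin gene Fbn1 (−0.83, 0.00204). The medians of the 4 activated markers were 2.35 and −0.42. Against healthy liver, 22 of the 24 were still higher in treated HCC.

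Other genes of the quiescent cell went both ways. Of 21 tested among 22, 10 fell in untreated HCC and 6 rose (median −0.46). The stellate genes Ecm1 (−1.90, edgeR adjusted p = 2.5e-07) and Vipr1 (−2.15, 4.7e-07) fell, as Lrat did, whereas Pparg, a lipid regulator held to keep the cell quiescent and also induced in fatty hepatocytes, rose (1.53, 1.2e-06). With miR-22, 4 were higher and none lower, among them Vipr1 (1.09, edgeR adjusted p = 0.000925), Ecm1 (0.76, 0.00209) and Hand2, a transcription factor gene of the stellate lineage (1.00, 0.00364). The count with miR-22 was 7, with 6 higher, when untreated replicate 4 was left out.

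Of the genes for retinol uptake, esterification and hydrolysis, 11 of 12 were tested, 5 fell in untreated HCC with Lrat among them and 2 rose. Over all genes 18.1% fell and 22.7% rose. Lpl, lipoprotein lipase, rose (2.80, edgeR adjusted p = 1.3e-07), and the carboxylesterase genes Ces1d (−2.35, 5.4e-07) and Ces1g (−1.94, 3.6e-06), which hepatocytes express at high levels, fell. With miR-22, 4 of the 11 were higher and 1 was lower, led by Ces1d (1.28, edgeR adjusted p = 0.000631). This count of 5 was 2 to 3 without any one of untreated replicates 2 and 3 and the 3 treated replicates.

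Of the contractile genes that smooth muscle shares with myofibroblasts, 14 of 17 were tested, and 6 rose in untreated HCC and 1 fell (median log2 fold change 0.79). Over all genes 22.7% rose and 18.1% fell. Tpm2 of this list had 136, 26 and 66 counts in healthy livers 1, 2 and 3, in the same order as their skeletal muscle genes. The part of muscle RNA in this list was not tested. Smtn, smoothelin (1.79, edgeR adjusted p = 4.8e-07), and Tpm1, a tropomyosin gene (1.32, 5.9e-07), rose, whereas Mylk, myosin light chain kinase, fell (−0.66, 5.2e-05). Myh11, the heavy chain of smooth muscle myosin and a defining gene of that cell, stood at 4.67 to 5.61 CPM in healthy and 4.25 to 7.70 CPM in untreated livers (0.26, edgeR adjusted p = 0.375). No contractile gene was called between the HCC groups by edgeR, where 5 had an unadjusted p under 0.05, 4 of them lower and 1 higher with miR-22, and DESeq2 called 1. Smtn had the smallest p there (−0.57, edgeR adjusted p = 0.00744), under the fold. The count was 1 without untreated replicate 4 or treated replicate 2 and with DESeq2 size factors, 2 without the fold limit and 3 under total-count scaling, all lower with miR-22. The other actin genes tested, Actb (1.01, adjusted p = 9.0e-06), Actg1 (1.04, 0.000111) and Actg2 (1.54, 0.0326), rose in untreated HCC with Acta2, and Actg1 was lower with miR-22 (−1.0, edgeR adjusted p = 0.00109).

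Genes of transforming growth factor β (TGF-β) signaling, the main fibrogenic signal to stellate cells, were called in part. Of 21 tested among 22, 9 rose and 2 fell in untreated HCC. Over all genes 22.7% rose and 18.1% fell there, and 13.8% were called with miR-22 against untreated HCC. The ligand gene Tgfb2 (4.47, edgeR adjusted p = 9.6e-07), the latency protein gene Ltbp3 (2.16, 1.9e-06) and the integrin gene Itgav (1.27, 3.1e-06) rose, whereas Tgfb1 differed by 0.54 (adjusted p = 0.0282), under the fold. With miR-22, 4 were lower, led by Itgav (−0.69, edgeR adjusted p = 0.00211) and Ltbp3 (−1.0, 0.00263), and none was higher. That count ranged from 2 to 7 with 1 library left out, the lowest without untreated replicates 2 or 3 or treated replicate 3 and the highest without treated replicate 4. Of 16 tested genes of portal fibroblasts and mesothelium, 8 rose and 2 fell in untreated HCC, led by Fbln2 (2.84, edgeR adjusted p = 3.6e-07) and Cd34 (2.40, 1.0e-06), which marks endothelium too. With miR-22, 2 of these 16 were higher and 3 lower, a count of 5 that was 1 to 3 without untreated replicate 2 or 3 or treated replicate 3 or 4.

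**Figure D4:**
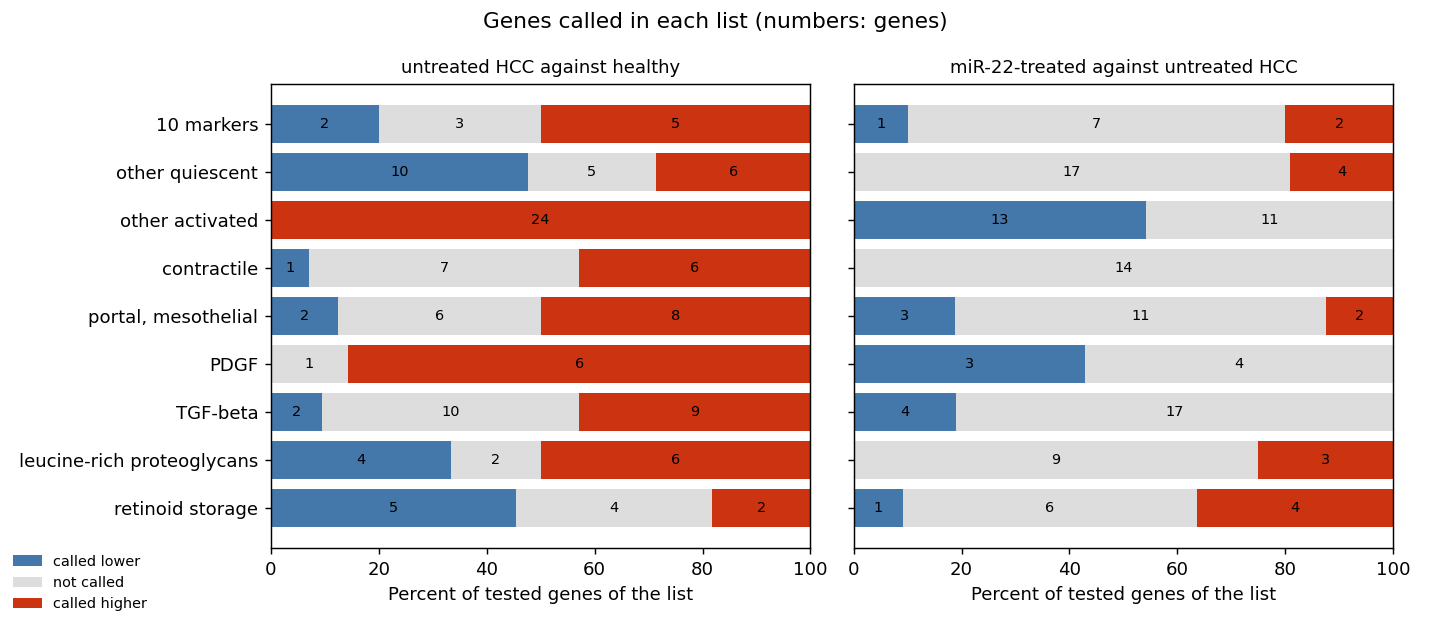
Share of the tested genes of each list (horizontal axis, percent) called lower, not called and called higher in 2 comparisons, with the number of genes printed in each bar. Of the 24 other genes of activated stellate cells, 24 rose in untreated HCC and 13 were lower with miR-22, while the lists of quiescent and retinoid genes held calls in both directions in untreated HCC. Over all genes tested, 40.8% were called in untreated HCC against healthy liver and 13.8% with miR-22 against untreated HCC.

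Each marker's profile over the 9 livers was compared with that of every other gene tested, as the root mean square of their differences in log2 CPM from the healthy mean. The 2 nearest to Vim were the collagen genes Col16a1 and Col4a1 (0.0921 for each, on the log2 scale), and Acta2 was near Cip2a (0.183) and Fstl1 (0.184). Dcn was nearest to Ugt2b5 (0.0695) and Ugt2b36 (0.0996), UDP-glucuronosyltransferase genes of hepatocytes from a family of similar copies, and Lum to the complement gene C8a (0.132) and Prss8 (0.193). Pdgfrb was nearest to Fam160a1 (0.0942) and Arhgef17 (0.132), Pdgfra to Appl2 (0.126) and Vezf1 (0.131), and Reln to Ralgapa1 (0.102) and Elk3 (0.104). Des was nearest to Ercc8 (0.163) and Vmo1 (0.167) and Tagln to Unc13a (0.197) and Cpeb1 (0.226). Lrat had no gene as near, with Gm36660 (0.318) and Gm30849 (0.322) first.

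Markers of some other cells moved between the groups as well, whereas the macrophage and the lymphocyte sums overlapped between healthy and untreated livers. Summed over 10 hepatocyte genes, the level was 133062 to 137544 CPM in the healthy group, 50477 to 63963 CPM in the untreated one and 78983 to 99352 CPM in the treated one, and 10 of 10 fell in untreated HCC. In the same order of groups, 10 bile duct genes summed to 49.1 to 60.9, 3383 to 6323 and 1593 to 2748 CPM, with 8 of 9 tested higher in untreated HCC, among them Spp1 (7.43, edgeR adjusted p = 6.9e-09), Sox9 and Epcam. Spp1 alone made 95.7% to 96.2% of these sums in the HCC livers, and the other 9 genes summed to 25.3 to 29.0, 145 to 246 and 65.4 to 106 CPM. Alb made 73.4% to 83.6% of the hepatocyte sums. The 10 endothelial genes summed to 483 to 584, 309 to 388 and 406 to 499 CPM, with 5 of 10 lower in untreated HCC and none higher (1 and 1 under total-count scaling). Macrophage genes summed to 439 to 563, 465 to 539 and 556 to 591 CPM, with 2 of 10 higher and 1 lower (0 and 1 without untreated replicate 2, 3 and 3 without the fold limit). Over all genes tested 40.8% were called in untreated HCC, 22.7% higher and 18.1% lower. Lymphocyte genes summed to 7.20 to 10.4, 8.29 to 12.2 and 9.12 to 12.7 CPM, with 1 of 10 higher and 1 lower. That count of 2 was 0 without healthy replicate 2 or untreated replicate 2, and 1 without healthy replicate 1, untreated replicate 3 or treated replicate 2 or 3. Neutrophil genes summed to 2.02 to 5.09, 20.5 to 26.1 and 19.3 to 31.7 CPM, with 5 of 5 tested higher. Ly6g, Ngp and Camp of the neutrophil list were at 0 in healthy livers. The part of these shifts in the markers' levels was not tested.

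The libraries held 16664659 to 23908392 counts, and TMM factors ran from 0.865 to 0.872 for the healthy group, from 1.12 to 1.22 for the untreated one and from 0.942 to 1.03 for the treated one. The oncogene labels were checked on Akt1, whose level was 1170 to 1673 CPM in untreated and 671 to 1104 CPM in treated livers, against 103 to 109 CPM without the plasmids. Treated replicate 4 had the highest Akt1 and the lowest Alb of the treated livers (1104 and 59936 CPM), together with the highest Acta2, Tagln and Vim and the lowest Lrat and Dcn. The smallest count behind a marker was 19, for Tagln in healthy liver 1.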

How the data were processed

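Total RNA of 9 whole livers was sequenced from libraries without strand information. The authors quantified the reads with Salmon on GRCm39, per the labels, and the counts per gene were deposited as whole numbers without normalization for 55401 genes. A second deposited table, of values the authors normalized, was not used here. Reads shared by near-identical genes were split by the authors' model.

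Groups were taken from the sample titles. Counts were fitted in R 4.3.3 with edgeR 4.0.16 (filterByExpr, TMM, quasi-likelihood F test, all 9 livers in 1 fit, Benjamini-Hochberg adjustment over 15717 genes), with an adjusted p under 0.05 and a fold above 1.5 as the limits, two-sided. Errors are SD of CPM and SE of log2 fold changes, with 95% intervals from the fit. The statistics were run on simulated data in which few genes changed, as many up as down. That run does not test the scaling between the groups of these data. Positions and transcript lengths were matched by identifier to GENCODE M39 (GRCm39), a later release than the authors' annotation, and all 214 genes of the lists matched. Nearest profiles used log2 CPM with a prior count of 2. Figures were drawn with matplotlib 3.10.9 in Python 3.11.15.

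The 10 markers and the lists were chosen with earlier results of these data known. Named were all 10 markers, up to 3 called genes with the smallest p in each list and comparison (or the gene with the smallest p where none was called), the 2 nearest profiles of each marker, and members of a marker's own gene family. Further genes (Myh11, Tpm2, Tgfb1, Vldlr, Stambpl1, Gm48529, Pcsk7, Acta1, Alb, Akt1, Epcam, Sox9, Spp1 and genes at 0) and the skeletal muscle list were named after their values were seen. The alternatives were DESeq2 1.42.0, its size factors, total-count scaling, no filter on low counts, the 2 groups of a comparison fitted alone, a block for the replicate number, the omission of each liver, calls with no fold limit and, added after the data were seen, healthy liver 2 as the only healthy one.

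Library pairs of a group differed beyond sampling noise (chi-square per degree of freedom 6.59 to 31.3), so each liver counted as 1 replicate. The titles do not say that livers came from separate animals, and p-values measure the spread between these samples. The sample descriptions give a lower AAV8 dose than the study's methods, and neither dose is used here.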

Additional observations from a re-analysis of the deposited data

How the results depend on the processing

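The count of markers called between untreated HCC and healthy liver was 7 with edgeR and ran from 6 to 8 over the alternatives, and that between treated HCC and healthy liver was 5 and ran from 4 to 5. Between the HCC groups it was 3 (2 higher, 1 lower with miR-22), 3 with DESeq2 (1 higher, 2 lower), 4 with DESeq2 size factors and 2 to 4 with each liver left out in turn. Total-count scaling gave 5 (1 higher, 4 lower): Lrat and Vim were joined by Acta2 (−0.80), Pdgfrb (−0.67) and Reln (−0.59), and Dcn (0.47) fell under the fold. Under that scaling the calls over all genes split into 5986 higher and 1492 lower in untreated HCC against healthy liver in place of 3575 and 2842, into 835 and 2164 with miR-22 against untreated HCC in place of 1308 and 859, and into 3408 and 593 with miR-22 against healthy liver in place of 2664 and 1108.

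With the replicate number as a block (replicate block) the count between the HCC groups was 4, Acta2 being added (−0.60, edgeR adjusted p = 0.0370), and the other 2 counts did not change. Livers with the same number did not deviate together (correlations −0.121, −0.131 and −0.235 for numbers 2, 3 and 4, mean 0.0809 between other numbers), so the numbers were not taken as pairs. As deviations were taken from each group's own mean, the value between other numbers is tied to these correlations and is no separate reference.

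Differences that were not called changed sign in a few settings. Des in untreated HCC against healthy liver was 0.13 under total-count scaling and 0.28 with healthy liver 2 as the only healthy one. Reln in treated HCC against healthy liver was 0.0931 under total-count scaling and ran from −0.22 to 0.0116 with each liver left out in turn. Pdgfra ran from −0.27 to 0.0035 between the HCC groups with each liver left out in turn, and was −0.0705 in treated HCC against healthy liver with healthy liver 2 alone. Over the 10 markers, the comparisons and the alternatives, 482 differences kept their direction and side of the limits, 11 gained a call, 11 lost one and 6 changed sign. The cause was not tested. Over all genes, the count between the HCC groups was 1433 without treated replicate 3 in place of 2167, and without the fold limit it was 3777 there and 5732 in place of 3772 for treated HCC against healthy liver. Of 1020 counts over the lists, 128 moved by more than 1.5 times. The depth limits Tagln most, at 19 to 35 counts in healthy livers.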
